A study of Mus musculus with 2 samples.

Results

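Il11, Il6, Lif, Osm and Clcf1, 5 ligands of the IL-6 cytokine family, and Il11ra1, Il6ra, Il6st, Lifr and Osmr, 5 of their receptor chains, were measured by RNA sequencing of mouse gonadal fat cells. These 10 genes, of 24091 in the table, were found by symbol. They were chosen by family membership with the levels and differences of these libraries already known, Il11 being among the genes that differed most, so the differences between libraries are given as a description and were not tested. The data comprised 1 library from sham-irradiated C57BL/6 mice, called the sham library below, and 1 library from C57BL/6 mice irradiated over the pelvis, and the titles of both also name PBS, without saying what it was given for. The labels state 7.5 Gy and 5 days for the irradiated mice, in wording that does not settle whether the dose was daily or total. In both groups the gonadal fat was taken 2 months after radiation and digested with collagenase for 45 minutes at 37 °C, and the floating cells were cultured for 3 days before polyadenylated RNA was sequenced by a stranded protocol. The sources used here give neither the age nor the sex nor the number of the mice.

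The cytokines of this family are secreted proteins that share gp130, the signalling receptor chain encoded by Il6st, which nearly all cell types carry. Each ligand first meets a chain of its own or shares LIFR or OSMR, and the assembled complex activates JAK kinases and the transcription factor STAT3, which in turn induces the inhibitor SOCS3. In adipose tissue, IL-6 is released by stromal cells, macrophages and adipocytes, and IL-11 is known as a product of fibroblasts exposed to TGF-beta.

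Levels are given as FPKM, the fragments of a gene scaled by its length in kilobases and by the depth of the library, recovered from the deposited log2(FPKM + 0.1) values. The depth recovered from the values was 30600000 fragments for sham and 35000000 for irradiated cells. A difference is the log2 value deposited for irradiated cells minus the value for sham cells. Beside it stands the 95% counting interval of the log2 ratio of fragments (exact Clopper-Pearson). With 1 library per group the differences have no replicate check, and all intervals cover counting error only.

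Both libraries are labelled as primary adipocytes, but several defining markers of mature adipocytes, Adipoq and Lep among them, were near 0. Adipoq, which encodes the adipocyte hormone adiponectin, had an FPKM of 0.133 in the sham library and 0.232 in the irradiated library. Lep, the gene of leptin, had 0 fragments and 2 fragments, respectively, where 0 fragments allow an FPKM of up to 0.0301. Of the 12 adipocyte genes examined, 8 reached an FPKM of 1 in neither library, and Cd36, a fatty acid transporter that macrophages and endothelial cells also carry, was the most abundant, at 118 and 161. The remaining 3, named after their values were seen, were well above 0. The lipid-binding protein gene Fabp4 stood at 96.9 in each library, the lipase gene Lpl at 68.0 and 66.6, and the lipase gene Pnpla2 at 5.11 and 5.76. The fibroblast collagen gene Col1a1 reached an FPKM of 1937 and 1428. The values below therefore describe cultured cells of the floating fraction, without assignment to adipocytes. In such bulk samples, more cells that express a gene and more RNA of that gene per cell cannot be told apart.

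Among the ligands, Il11 differed most between the libraries. Il11, a cytokine that acts on fibroblasts and blood-forming cells, had an FPKM of 4.19 in the sham library (256 fragments) and 18.4 in the irradiated library (1289 fragments). Its level was 4.40 times as high in the irradiated library, a difference of 2.11 on the log2 scale (counting interval 1.94 to 2.34). In the sham library the FPKM of Il11 exceeded that of 30.0% of the 11253 genes kept, meaning those whose FPKM reached 1 in either library, and in the irradiated library that of 71.6%. Il11 thus moved from the lower part of the range of expressed genes to the upper part.

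Lif and Clcf1 were also higher in the irradiated library, by less. Lif, the leukemia inhibitory factor that maintains stem cells and acts in inflammation, had an FPKM of 6.26 and 10.03 in the sham and irradiated libraries (830 and 1521 fragments). Its difference was 0.67 (interval 0.56 to 0.80). Clcf1, a ligand of the ciliary neurotrophic factor receptor, had an FPKM of 3.79 and 6.63 (443 and 885 fragments). Its difference was 0.79 (interval 0.64 to 0.97), so both lay under a doubling, which is a log2 difference of 1.

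Il6 and Osm did not share this direction. Il6, the ligand that gives the family its name, was the most abundant of the 5 ligands in both libraries, with an FPKM of 35.9 in the sham library and 31.5 in the irradiated library (2662 and 2669 fragments). Its difference was -0.19 (interval -0.27 to -0.11), a slightly lower level in the irradiated library. Osm, which encodes oncostatin M, a product of macrophages and neutrophils, had an FPKM of 0.653 and 0.511, from 38 and 34 fragments. Its difference of -0.30 had an interval from -1.07 to 0.35, so no difference of Osm was detectable at this depth.

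**Figure D1:**
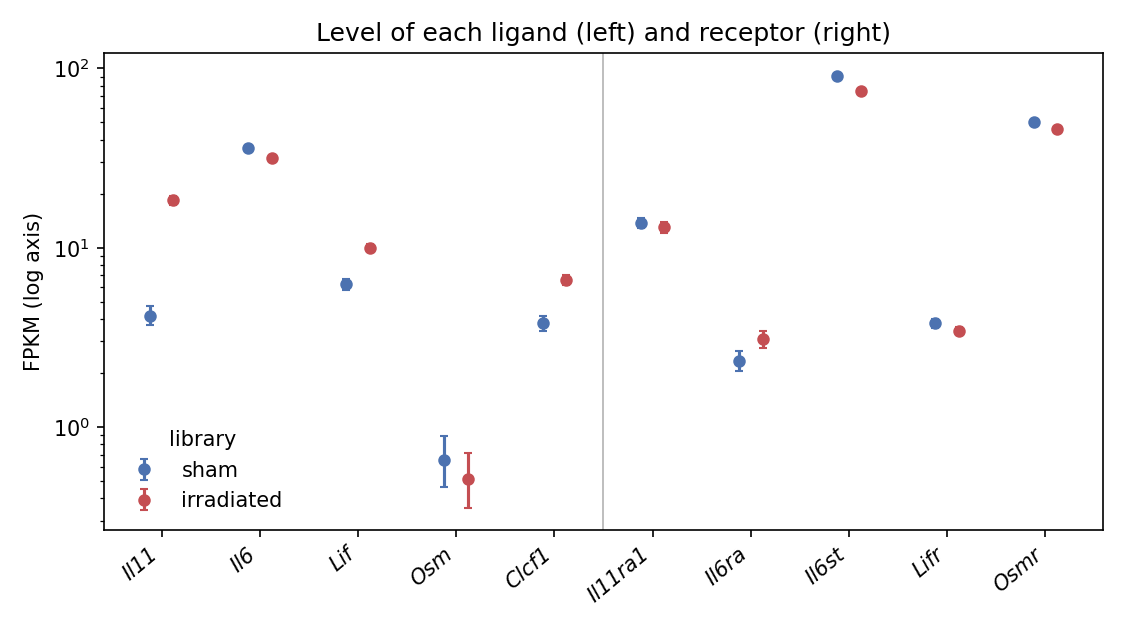
FPKM (log axis) of the 5 ligands, left of the line, and of the 5 receptor chains, right of it, in the sham and the irradiated library; bars are exact 95% Poisson counting intervals of each level. Il11 stands at 4.19 and 18.4, and the receptor chains differ less, Il6st standing at 91.0 and 75.0 and Il6ra at 2.33 and 3.08.

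The receptor chains differed less between the libraries than Il11, Lif and Clcf1 did. Il6st, the gp130 chain that all 5 ligands need, had an FPKM of 91.0 in the sham library and 75.0 in the irradiated library. Its difference was -0.28 (interval -0.31 to -0.25), a modestly lower level. Il11ra1, the chain that binds IL-11, had an FPKM of 13.7 and 13.0 (817 and 884 fragments), with a difference of -0.08 (interval -0.22 to 0.06). The counting interval of Il11ra1 thus included 0 while its ligand differed by 2.11. Mouse Il11ra1 has a near-identical copy, Il11ra2, for which no entry was found under that symbol. How the counting divided fragments between such copies was not tested.

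Il6ra was the 1 receptor chain with an interval above 0. This chain, which binds IL-6 and can be shed from the membrane, had an FPKM of 2.33 in the sham library and 3.08 in the irradiated library (240 and 363 fragments). The difference of Il6ra was 0.39 (interval 0.16 to 0.64). Osmr, the signalling chain for oncostatin M, had an FPKM of 50.1 and 45.8, a difference of -0.13 (interval -0.17 to -0.09). Lifr, which signals for LIF and, with the CNTF receptor, for CLCF1, had an FPKM of 3.79 and 3.43, a difference of -0.14 (interval -0.26 to -0.03). The lower values of Osmr and Lifr were small, with 95% intervals below 0, and with 99% intervals the count of members below 0 was 3 in place of 4.

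Of the 10 members, 9 reached an FPKM of 1, each of them in both libraries, and Osm reached it in neither. Il11 was the 1 member that was higher by at least 1 on the log2 scale, and 0.791% of the 11253 genes kept were higher by that much. The count of members lower by at least 1 was 0, beside 0.373% of the genes kept. Counting intervals lay above 0 for 4 members, Il11, Lif, Clcf1 and Il6ra, and 23.8% of the genes kept had such an interval. They lay below 0 for 4 members, Il6, Il6st, Osmr and Lifr, beside 17.5% of the genes kept. Because Il11 was chosen with this difference known, nothing is read from these counts. A difference as large as that of Il11, in either direction, was seen in 0.151% of the genes kept, as large as that of Lif in 3.12% and as large as that of Il11ra1 in 61.8%. Il11 ranked at place 9 by difference among the genes kept.

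**Figure D2:**
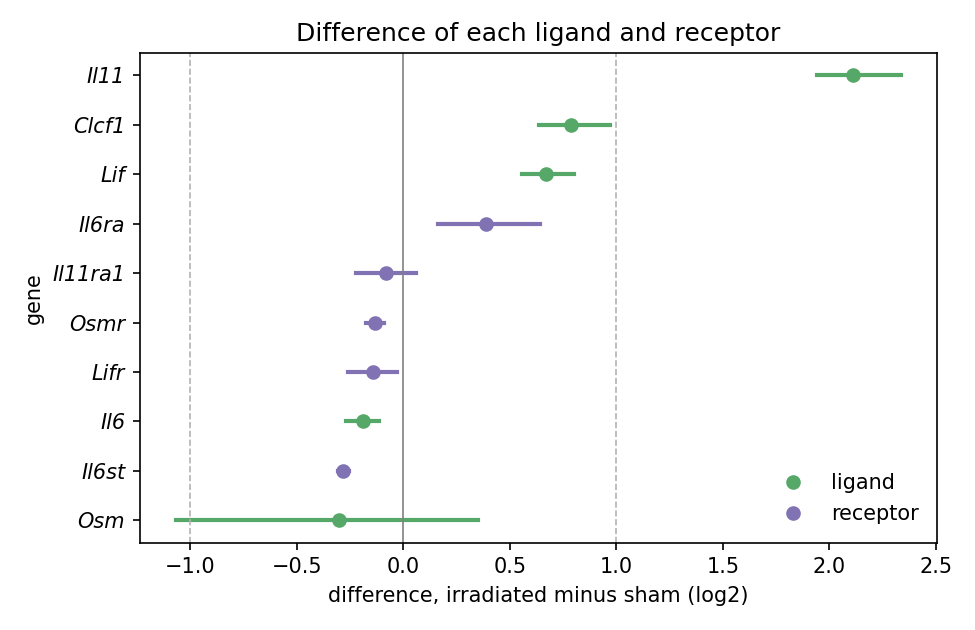
Difference of each member, irradiated minus sham, on the log2(FPKM + 0.1) scale (points), with the exact 95% counting interval of the log2 fragment ratio (lines); dashed lines mark differences of -1 and 1. Il11, at 2.11, lies beyond the dashed line, and the 5 receptor chains lie between -0.28 and 0.39.

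Compared per length within the sham library, the levels ran from Il6st at an FPKM of 91.0 through Osmr at 50.1, Il6 at 35.9, Il11ra1 at 13.7, Lif at 6.26, Il11 at 4.19, Lifr and Clcf1 at 3.79 each and Il6ra at 2.33 to Osm at 0.653. Il11 could not be separated by its Poisson counting interval (3.69 to 4.73) from Lifr, the next in the order, nor Lifr from Clcf1. In the irradiated library Il6st, Osmr and Il6 again held the top of the order, at an FPKM of 75.0, 45.8 and 31.5. Il11 followed in place 4 rather than place 6, above Il11ra1 at 13.0, Lif at 10.03 and Clcf1 at 6.63. The intervals of Lifr (3.25 to 3.63) and Il6ra (2.77 to 3.41), next to each other in that order, overlapped.

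The level of each ligand was then compared with that of its own receptor. The ratio of Il11 FPKM to Il11ra1 FPKM was 0.305 in the sham library (exact 95% interval 0.264 to 0.351) and 1.42 in the irradiated library (1.30 to 1.55). The ligand was thus less abundant than its receptor chain in the sham library and more abundant in the irradiated library. The ratio of Lif to Lifr was 1.65 (1.51 to 1.81) and 2.92 (2.71 to 3.15), with the ligand the more abundant in both. The ratio of Il6 to Il6ra moved the other way, from 15.4 (13.5 to 17.7) to 10.2 (9.15 to 11.4), since Il6 was lower and Il6ra higher. Osm stood far under its receptor, with a ratio to Osmr of 0.0130 (0.00921 to 0.0179) and 0.0112 (0.00771 to 0.0156), intervals that overlapped. Clcf1 exceeded Cntfr, the chain it binds, 4.59 times (3.45 to 6.19) and 11.3 times (8.29 to 15.6), but Cntfr had an FPKM of no more than 0.827.

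**Figure D3:**
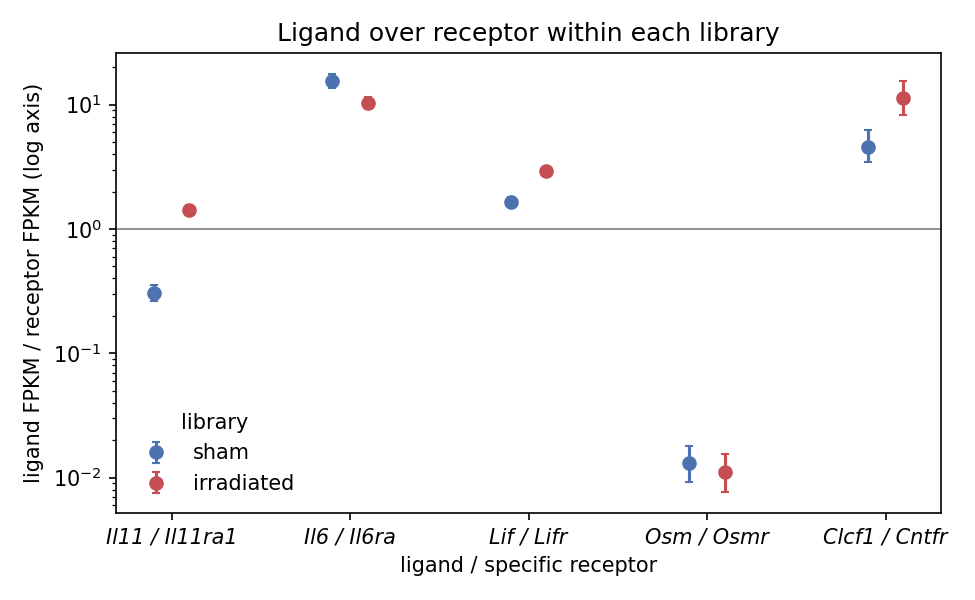
Ratio of ligand FPKM to the FPKM of its receptor chain (log axis) in the sham and the irradiated library, with exact 95% counting intervals; the line marks equal levels. The ratio of Il11 to Il11ra1 crosses the line, from 0.305 to 1.42, and that of Osm to Osmr lies near 0.01 in both.

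Against gp130, the shared chain, each ligand was the less abundant in both libraries. The ratio of Il11 to Il6st was 0.0460 in the sham library (0.0405 to 0.0520) and 0.246 in the irradiated library (0.232 to 0.260). The ratio of Lif to Il6st was 0.0688 and 0.134, and that of Clcf1 to Il6st was 0.0416 and 0.0884. For Il6 it was 0.394 (0.379 to 0.411) and 0.420 (0.403 to 0.437), with intervals that overlapped. In the irradiated library the ratio to gp130 was 5.34 times its sham value for Il11, 1.94 times for Lif and 2.12 times for Clcf1. For Il6 it was 1.06 times its sham value and for Osm, at 0.00717 and 0.00682, 0.952 times. Overlap of 2 intervals does not show that the ratios were the same.

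The summed FPKM of the 5 ligands was 50.8 in the sham library and 67.0 in the irradiated library, and that of the 5 receptor chains was 161 and 140. Ligands over receptors gave 0.315 and 0.478. Without Il6st, the ratio was 0.726 and 1.03, so that which sum was the higher in the irradiated library depended on the shared chain. Il6 made up 70.7% of the summed ligand FPKM in the sham library and 46.9% in the irradiated library. The share of Il11 was 8.24% and 27.5%, respectively, so that in the irradiated library Il11 was the ligand of highest level after Il6. Il6st held 56.5% and 53.4% of the summed receptor FPKM, and Osmr 31.1% and 32.6%, a makeup that was nearly the same in both libraries.

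The further genes of the family described here were at low levels, each under an FPKM of 1 in both libraries. The cardiotrophin gene Ctf1 had 19 and 36 fragments and the neurotrophic ligand gene Cntf 3 and 5. Ebi3, a subunit of IL-27 and IL-35, had an FPKM of 0.840 and 0.808, and Il27, the gene of its partner in IL-27, had 0 fragments and 1 fragment. No fragments were found for Ctf2, which allows an FPKM of up to 0.109 and 0.0956, or for Il31, which allows up to 0.0940 and 0.0822. Of the receptor genes, Cntfr had an FPKM of 0.827 and 0.588, Il27ra of 0.964 and 0.886 and Il31ra of 0.0539 and 0.106, and each of their intervals included 0. In both libraries the members had higher levels than these genes, apart from Osm, whose FPKM of 0.653 and 0.511 lay in the same range.

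Downstream of gp130, 22 signalling genes were examined, all of them kept, and the count that was higher or lower by at least 1 was 0 in each direction. Counting intervals lay above 0 for 5 genes and below 0 for 10, beside 23.8% and 17.5% of all genes kept, with a median difference of -0.025 over the list beside 0.02 over all genes kept. Jak1, the kinase gp130 depends on most, had the highest level, with an FPKM of 116 and 108 in the sham and irradiated libraries. Stat3, the transcription factor that gp130 activates, had an FPKM of 55.6 and 53.7, a difference of -0.05. Socs3, the inhibitor that binds gp130 and is itself induced by STAT3, had an FPKM of 21.8 and 18.4, a difference of -0.24 (interval -0.34 to -0.15). The higher Il11 level in the irradiated library was thus not accompanied by a higher Socs3 level. Differences of at least 0.5 in size were found for Jak2, Socs1 and Cish. Jak2, a further kinase of the pathway, differed by -0.53 (FPKM 78.1 and 54.1) and the cytokine signalling inhibitor Socs1 by -0.55 (FPKM 2.71 and 1.82). Cish, an inhibitor of the same family, differed by 0.60 (FPKM 0.729 and 1.16). Cish was kept only through the irradiated library, where it was high, and is among the 5 genes with an interval above 0.

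Of 23 genes known to respond to these cytokines, 19 were kept, of which 0 were higher and 1 was lower by at least 1. Intervals lay above 0 for 5 and below 0 for 8, beside 23.8% and 17.5% of all genes kept, and the median difference was -0.05. The gene lower by at least 1 was Hp, which encodes the acute phase protein haptoglobin, with an FPKM of 146 in the sham library and 45.2 in the irradiated library, a difference of -1.69 (interval -1.76 to -1.62). Saa3, an acute phase gene active in fat and macrophages, had an FPKM of 425 and 251, a difference of -0.76, and Steap4, a metalloreductase gene of fat, 30.0 and 19.6, a difference of -0.61. Bcl2l1, which encodes the survival protein BCL-XL, was higher by 0.55, with an FPKM of 9.61 and 14.1. Timp1, an inhibitor of matrix proteases, had the highest level of the list, with an FPKM of 1770 and 2091. The 3 fibrinogen genes Fga, Fgb and Fgg, a liver readout of IL-6, had no fragments. Among the 7 kept genes of secreted or acute phase proteins, which include Hp, Saa3 and Timp1, 3 intervals lay above 0 and 2 below. Lbp, Lcn2 and Serpina3n of that group, named after their values were seen, differed by 0.28 (interval 0.06 to 0.52), 0.03 and 0.07, so the acute phase genes had no common direction.

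Of 13 genes known to induce Il11, which encode TGF-beta ligands, inflammatory cytokines and subunits of the transcription factor AP-1, 11 were kept. None of these 11 was higher or lower by at least 0.5. Intervals lay above 0 for 4 and below 0 for 1, beside the same 23.8% and 17.5%, with a median difference of 0.11. Junb, an AP-1 subunit, had the highest level, with an FPKM of 51.5 and 49.8. The TGF-beta ligand gene Tgfb1 differed by 0.24 (interval 0.17 to 0.31). Of the AP-1 subunits, Fosl1 and Jund were named after their values were seen. Fosl1 differed by 0.45 (interval 0.34 to 0.57), with an FPKM of 19.1 and 26.1, and Jund by -0.16 (interval -0.28 to -0.04). The differences in this list were far under that of Il11, and the part of these genes in the level of Il11 was not tested.

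On the chromosomes, the members lie on 8 chromosomes. Il11 lies on the minus strand at chr7:4772378-4782857 (mm10), and 82 bases separate its upstream end from Tmem190, a gene of the plus strand. Tmem190 had 10 fragments in the sham library and 26 in the irradiated library, a difference of 1.06 (interval of the fragment ratio 0.08 to 2.40). Its FPKM was 0.564 and 1.29, so it was kept only through the library where it was high. Nothing is read from its difference. Of the other neighbours of Il11, Tmem238 differed by -0.25, Cox6b2 had 2 and 6 fragments and Fam71e2 had none. Osm and Lif are neighbours on the plus strand of chromosome 11, 16541 bases apart, yet Osm differed by -0.30 and Lif by 0.67. Osmr and Lifr are neighbours on chromosome 15, 255258 bases apart, and differed by -0.13 and -0.14. The nearest 2 genes on each side of every member gave 32 genes that are not members, of which 18 were kept. The differences of those 18 ran from -0.46, for Pold4 beside Clcf1, to 1.06, for Tmem190, with a median of -0.04. Apart from Tmem190, the kept neighbours thus lay within 0.5 of 0.

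Overlapping genes were found for 2 members. Clcf1 lies within Gm45928, a predicted gene of the same strand with no fragments in either library, and how the counting treated fragments that fit both was not tested. Il11ra1 shares 4 bases with Ccl27a, a gene of the opposite strand with 13 and 12 fragments. The remaining 8 members overlapped no gene of the table.

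**Figure D4:**
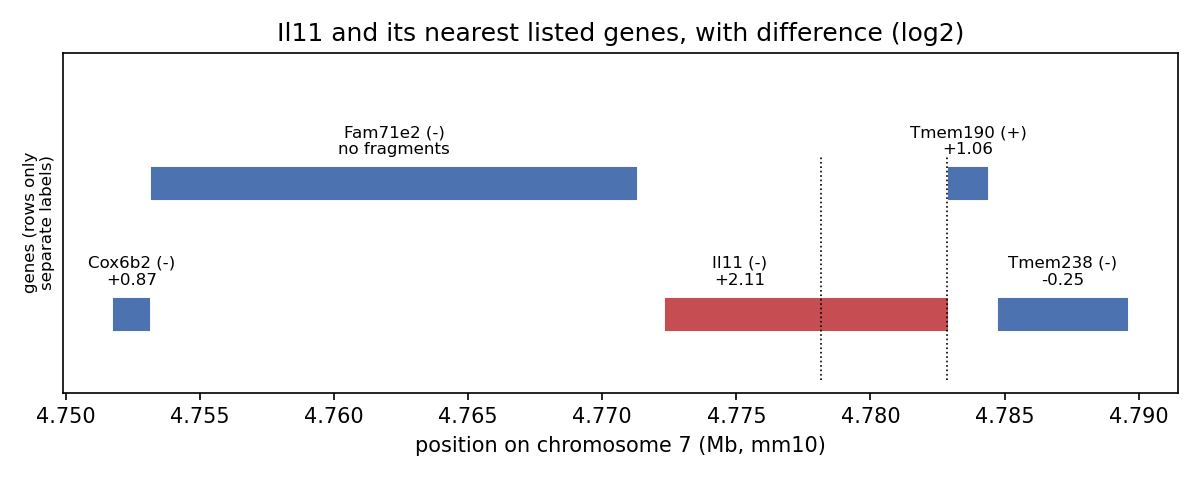
Il11 (red) and its nearest 2 listed genes on each side (blue) on chromosome 7, drawn to scale in Mb of mm10, with strand and log2 difference, irradiated minus sham, at each gene; the rows only separate labels and dotted lines mark the RefSeq starts of Il11. Il11 differs by 2.11. Tmem190, next to the upstream start of Il11, differs by 1.06, from 10 and 26 fragments, and was kept only through the irradiated library.

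The RefSeq promoter table (GRCm38.p6) held 11 promoters for 8 of the 10 members, and Osm and Clcf1 were not matched. The 250 bases before each start were searched on both strands for the AP-1 motif TGANTCA and the STAT motif TTCNNNGAA, which read the same on either strand. The AP-1 motif was found in 1 promoter each of Il11, Il6 and Lif, and 6.75% of all 32851 promoters of the table hold it. The STAT motif was found in 0 of the 11 promoters, so no matches overlapped, and 7.02% of all promoters hold it. A match is a description and not a site or a cause. The 3 members with a match, Il11, Il6 and Lif, differed by 2.11, -0.19 and 0.67, and the part of the motif in these differences was not tested. Il11 has 2 starts, and the match lies before the downstream start, inside the listed gene, with its first base 98 bases before that start. The 250 bases before that start are shown because Il11 carries the greatest difference among the members, and the stretches around the matches of Lif, 228 bases before its start, and Il6, 249 bases before its start, are shown for comparison. They are chr7:4778142-4778391 on the minus strand, chr11:4257318-4257370 on the plus strand and chr5:30012864-30012895 on the plus strand, each written 5′ to 3′ with the AP-1 match in capitals.
Il11: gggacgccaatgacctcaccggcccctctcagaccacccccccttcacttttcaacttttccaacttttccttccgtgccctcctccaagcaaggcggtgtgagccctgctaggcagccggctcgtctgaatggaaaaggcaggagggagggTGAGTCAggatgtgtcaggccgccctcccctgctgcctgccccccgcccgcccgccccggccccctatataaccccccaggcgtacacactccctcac
Lif: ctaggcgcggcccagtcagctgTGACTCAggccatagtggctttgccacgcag
Il6: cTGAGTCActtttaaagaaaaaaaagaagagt

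Genes like Il11 in level were sought among the genes kept, leaving out predicted genes, genes with Rik names and small RNA genes. Nearness was the Euclidean distance between pairs of log2 values over the 2 libraries. The nearest genes were Ifit1 at a distance of 0.48, Ereg at 0.70, Epha2 at 0.82, Upk1b at 0.82 and Psrc1 at 0.85. Ifit1, an interferon-induced gene, had an FPKM of 4.10 in the sham library and 13.2 in the irradiated library, where Il11 had 4.19 and 18.4. Ereg, which encodes the growth factor epiregulin, had 6.53 and 14.9. Upk1b is also among the mesothelial markers given below. With 2 libraries, such likeness says only that these genes had a like level and a like difference.

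Most of the mesothelial and macrophage markers examined had higher values in the irradiated library. Of 8 mesothelial markers, 7 had an interval above 0 and 1 below, 5 were higher by at least 1, and none was at 0. Of those 5, Msln, Upk3b, Krt19 and Krt18 reached an FPKM of 1 only in the irradiated library. They were thus kept through the library where they were high, and nothing is read from the mesothelial counts of 7 and 5. Of all genes kept, 23.8% had an interval above 0, 17.5% had 1 below, and 0.791% were higher by at least 1. The summed FPKM of the mesothelial markers was 34.5 in the sham library and 49.5 in the irradiated library. Wt1, the most abundant of them, had an FPKM of 20.4 and 18.7, and Msln, the gene of mesothelin, 0.520 and 2.71. Of 10 macrophage markers, 7 had an interval above 0 and 1 below, none was higher or lower by at least 1, and none was at 0. Their summed FPKM was 611 and 651, and Lyz2 was the most abundant, at 443 and 410. Adgre1, which encodes the macrophage antigen F4/80, stood at 15.7 and 15.5. Lyz2 and Adgre1 were the 2 macrophage markers that were lower, and the other 8 were higher. Of these 8, named after their values were seen, Cd68 stood at 59.2 and 96.9 and C1qa at 12.5 and 21.9. Mrc1 stood at 11.3 and 16.3, and Itgam at 24.7 and 26.3. The part of these cell types in the levels of Il11, Lif and Clcf1 was not tested. Of 6 markers of neutrophils, which are known to release oncostatin M, Ly6g and Cxcr2 had no fragments, and S100a8, the most abundant per length, had an FPKM of 2.10 and 1.47 (25 and 20 fragments).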

How the data were processed

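The members and gene lists were chosen with earlier results of these data known. The authors deposited FPKM on the log2 scale after adding 0.1, to 2 decimals, with each gene's position and length. The submitters' processing notes name mm10, and the sources used here do not give the aligner or the counting tool. FPKM was recovered as 2 to the power of the log2 value minus 0.1. The depth of each library was the total that made low genes whole fragments, within 0.12 for 3449 of 3449 and 3422 of 3422 genes, and this step was checked on simulated data. Fragments of abundant genes are approximate because of the rounding. Genes whose FPKM reached 1 in either library were kept. No test was possible with 1 library per group. Intervals are exact at 95%, Clopper-Pearson for ratios and Poisson for levels. The limit for 0 fragments is 3 fragments. The genes named were all members and further family genes, 1 of which is not reported here, list genes with a difference of at least 0.5, the most abundant, first and undetected list genes, Stat3, Jak1 and Socs3, the 5 genes nearest to Il11 and chromosomal neighbours. SciPy 1.17.1, pandas 2.3.3 and numpy 2.4.6 were run in Python 3.11.15, and figures were drawn with matplotlib 3.10.9. Promoter sequences are from RefSeq. The planned comparison of protein sequences was not run. Alternatives were other pseudocounts, scalings, filters, thresholds and summaries.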

Additional observations from a re-analysis of the deposited data

How the results depend on the processing

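Of 149 values recomputed under the alternatives, for the members and the signalling, response and inducer lists, 140 lay within the limits set and 9 moved. The limits were the counting interval of a value, 1.5 times a count and, for the median of a list, a 95% interval from the ordered values of its genes. The median of the response genes was -0.05, against a mean of -0.17 and a median of 0 without a filter. All 10 members kept the sign of their difference under each change of pseudocount and scaling that was run. The difference of Il11 was 1.90 on the log2(FPKM + 1) scale, 2.14 without a pseudocount and 2.09 after either rescaling. With a threshold of 2 on the deposited scale, Il11 was the 1 member past it. With a threshold of 0.5, 3 members were higher. With 99% intervals, 3 members in place of 4 lay below 0. The ratio of ligand to receptor level was 0.305 and 0.772 in the sham and irradiated libraries from medians, 0.129 and 0.199 from fragments not divided by length and 0.726 and 1.03 without Il6st. The median ligand was Il11 in the sham library and Lif in the irradiated library, and the median receptor was Il11ra1 in both. The medians thus compare different ligands in the libraries. After centring, 2 genes of the Il11 inducers had an interval below 0. These changes follow from how each alternative is built. No paired analysis was possible because the groups held 1 library each. The depth limits Osm, whose interval includes 0, and the other genes with few fragments, and variation between mice and cultures is in no interval.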

Other observations

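Other marker lists are given beside all genes kept, of which 23.8% had a counting interval above 0 and 17.5% had 1 below. All 9 fibroblast markers were kept, with a summed FPKM of 4382 in the sham library and 3475 in the irradiated library, where 5 of them had an interval below 0 and 1 above. The 5 smooth muscle and pericyte markers had a summed FPKM of 580 and 685, with Acta2, at 545 and 643, the most abundant, and 3 intervals above 0. The 5 endothelial markers had a summed FPKM of 37.8 and 41.5, with 4 intervals above 0. Cdh5, the most abundant of them, had an FPKM of 16.5 and 16.2, and Pecam1 10.2 and 11.5. The 7 lymphocyte markers summed to an FPKM of 1.38 and 0.851, and none of them was kept. Cd3e, the most abundant per length, had an FPKM of 0.411 and 0.261 (18 and 13 fragments).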
